A study of Drosophila melanogaster with 3 samples.

Results

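The tetraspanin genes of *Drosophila melanogaster* were followed in polyadenylated RNA of adult heads. Members were the genes of the deposited count table whose symbol is Tsp followed by digits and letters, together with *lbm* (late bloomer), with FlyBase IDs matched to symbols. This rule found 35 of the 17558 genes in the table, and no measured value entered it. *Tspo* and *Tsp*, which are in the table and have names that begin alike, carry no digits and were not members. The material was heads of untreated wild-type adults raised at 25°C, and 150 ng of total RNA went into each of 3 libraries of the TruSeq Stranded mRNA kit, which captures polyadenylated RNA on oligo-dT beads. The series text names the strain CantonS, whereas the study names *w1118* as its control strain and used adults of both sexes, and neither sex nor age is labelled for these libraries. All libraries form 1 group, with no treated flies, mutants or other tissues beside them. Genes were therefore compared with one another in the same library, and libraries with one another. No source says that the replicates came from separate cultures, and every p-value measures only the spread between these 3 samples. Cells of every head tissue were mixed, and fewer expressing cells cannot be told apart from less RNA per cell.

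Tetraspanins are small membrane proteins that cross the membrane repeatedly and expose a small and a large loop to the outside. They gather partner proteins such as integrins, proteases and receptors into membrane domains, and several of them travel through endosomes to lysosomes. In flies, members are known for roles in the turnover of rhodopsin in photoreceptors (*Tsp42Ej*, called sunglasses), in the formation of motor nerve synapses (*lbm*), in the delivery of the Notch-cleaving protease Kuzbanian (*Tsp3A*, *Tsp26A* and *Tsp86D*) and in the smooth septate junctions of the gut (*Tsp2A*).

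The libraries held 8332583, 7349123 and 6299265 counts in replicates 1, 2 and 3. A single count was worth 0.12 to 0.159 CPM, which is the count divided by the library total and scaled to 1000000. A floor of 3 counts equalled 0.36 to 0.476 CPM depending on the library. The libraries of each pair differed by more than sampling noise (chi-square over its degrees of freedom, 5.02 to 18.1), and each was counted as a separate sample. Replicate 2 stood apart in its mitochondrial share, at 3.88% of counts against 7.20% and 6.62%. Markers of head tissue were abundant. The summed level of 3 photoreceptor markers (*ninaE*, *Arr2* and *trp*) ranged from 33466 to 36039 CPM, that of 3 neuronal markers (*elav*, *nSyb* and *Syt1*) from 2587 to 3058 CPM and that of 3 glial markers (*repo*, *moody* and *Gs2*) from 2072 to 2236 CPM. Markers of fat body (4443 to 5039.8 CPM for 2 of 3 matched), muscle (3260.3 to 4009.7 CPM) and haemocytes (266 to 388 CPM) were present as well. Single genes made up most of the photoreceptor, glial, fat body, muscle and haemocyte sums. These were *ninaE* (mean 21871 CPM), *Gs2* (2009 CPM), *apolpp* (4608 CPM), *Mhc* (3592 CPM) and *Hml* (284 CPM). The largest part of the neuronal sum came from *Syt1* (1446 CPM), followed by *nSyb* (1208 CPM). Of all matched markers, 1 of fat body and 1 of muscle were called variable between replicates. The storage protein gene *Lsp2* had 150.3, 130.1 and 31.0 CPM in replicates 1, 2 and 3 (edgeR adjusted p = 0.0112), and the flight muscle actin gene *Act88F* had 3.12, 3.13 and 18.4 CPM (edgeR adjusted p = 0.0447). Markers of tissues outside the head were at or near 0, with sums of at most 0.272 CPM for 2 of midgut, 0.680 CPM for 2 of testis and 0.136 CPM for the matched 1 of 2 of ovary.

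Most of the family was detected in heads. Of the 35 members, 30 had at least 10 counts over the libraries, or 85.7%, where 69.3% of 13684 protein-coding genes did. Summed over all members, the level was 1901 CPM in replicate 1 (Wilson 95% interval 1871 to 1931), 1783 CPM in replicate 2 (1753 to 1814) and 1806 CPM in replicate 3 (1773 to 1839). The mean of 1830 CPM ± 62.5 (SD, n = 3) corresponds to 0.183% of all counts. The interval of replicate 1 lay above the others, which overlapped. The family was uneven, with 5 members above 100 CPM, 16 between 10 and 100 CPM and 14 below 10 CPM. The 5 most abundant members made up 65.3% ± 0.28 of family counts (SD, n = 3). With 12 members the share reached 89.5% ± 0.42. The median detected member had 20.3 CPM ± 1.5 (SD, n = 3), beside 28.3 CPM ± 1.2 for all detected protein-coding genes. Per kilobase of annotated exon, which compares genes of unequal length, the medians were 15.3 ± 0.41 CPM per kb for members and 12.8 ± 0.33 CPM per kb for all detected protein-coding genes, so the side of the background on which the family lay depended on the scale.

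**Figure D1:**
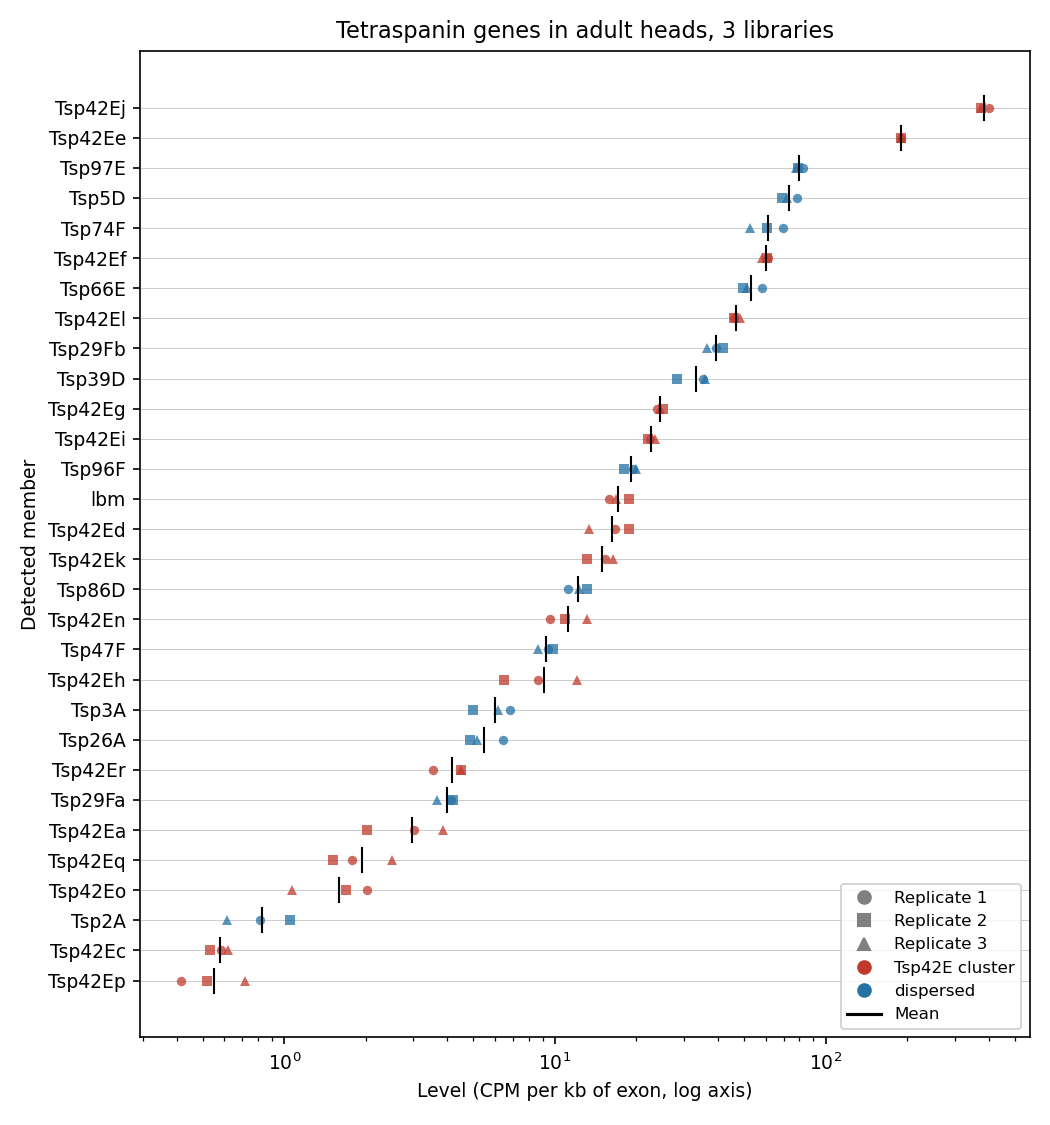
Level of each of the 30 detected tetraspanin genes in CPM per kb of exon (log axis), with 1 symbol per replicate, a black bar at the mean of 3 libraries, and colour for membership of the Tsp42E cluster or not. *Tsp42Ej* (384 CPM per kb) and *Tsp42Ee* (190 CPM per kb) stood above all others, and the points of many neighbouring genes below *Tsp5D* overlapped.

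*Tsp42Ej* was the most abundant member on either scale. Its protein, sunglasses, is a lysosomal tetraspanin of photoreceptors that promotes the breakdown of rhodopsin in the light. It had 449 CPM in replicate 1, 417 CPM in replicate 2 and 420 CPM in replicate 3, a mean of 429 CPM ± 17.8 (SD, n = 3), and it alone took 23.4% ± 0.19 of family counts. Per kb it exceeded 97.9% of detected protein-coding genes. The name calls for care, because RefSeq lists *sun* among the synonyms of *Tsp42Ej* while FlyBase uses *sun* as the symbol of another gene, FBgn0014391 on chromosome X. That gene is no tetraspanin and had 226 CPM ± 10.2, and its row was not used. Rhodopsin itself (*ninaE*, the opsin of the outer photoreceptors) stood at 21871 CPM ± 1096 in the same libraries.

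*Tsp42Ee* came next and had the smallest relative spread of all detected members. It had 279, 277 and 277 CPM in replicates 1, 2 and 3, a mean of 278 CPM ± 0.962 (SD, n = 3). Its coefficient of variation of 0.347% lay below the 2.22% of counting error, so the depth could not resolve how steady it was. Per kb, *Tsp42Ej* was 2.02 times as abundant as *Tsp42Ee*, with log2 ratios between 0.98 and 1.08 in the 3 libraries.

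The next members lay outside the 42E cluster. *Tsp97E*, which RefSeq also lists under the name Tspan31, had 217, 208 and 205 CPM in replicates 1, 2 and 3, a mean of 210 CPM ± 6.31 (SD, n = 3). *Tsp5D* had 166, 146 and 152 CPM, a mean of 154 CPM ± 10.2. *Tsp66E* had 135, 116 and 119 CPM, a mean of 123 CPM ± 10.3. All of these were highest in replicate 1, and for *Tsp5D* and *Tsp66E* the Wilson intervals of replicates 1 and 2 did not meet. *Tsp74F* had 106, 92.4 and 80.0 CPM, a mean of 92.8 CPM ± 13.0, and the interval of replicate 1 (99.3 to 113 CPM) lay above that of replicate 3 (73.3 to 87.3 CPM). *Tsp39D* had 83.3, 66.7 and 84.3 CPM, a mean of 78.1 CPM ± 9.90, and was low in replicate 2 only. *Tsp96F* had 64.9, 60.3 and 66.5 CPM, a mean of 63.9 CPM ± 3.24, and its intervals overlapped in all libraries.

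Of the 12 most abundant members, the rest differed little between libraries. *Tsp42Ef* had 82.7, 81.5 and 78.1 CPM in replicates 1, 2 and 3, a mean of 80.8 CPM ± 2.38 (SD, n = 3). *Tsp42El* had 48.8, 48.6 and 51.4 CPM, a mean of 49.6 CPM ± 1.58. *Tsp29Fb* had 48.5, 51.3 and 44.9 CPM, a mean of 48.2 CPM ± 3.19. In each of these genes the 3 intervals shared a value. *Tsp42Ei* had 29.3, 28.8 and 30.5 CPM, a mean of 29.5 CPM ± 0.845, and its exons share 182 bp with the opposite-strand gene *CG33914*. Below these 12, and apart from *lbm* and the TspanC8 genes, the members above 10 CPM were *Tsp42Eg* (29.0 CPM ± 0.80), *Tsp42Ed* (20.3 CPM ± 3.39), *Tsp42Ek* (17.9 CPM ± 1.98), *Tsp42En* (14.9 CPM ± 2.40) and *Tsp47F* (11.2 CPM ± 0.69; SD, n = 3).

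**Figure D2:**
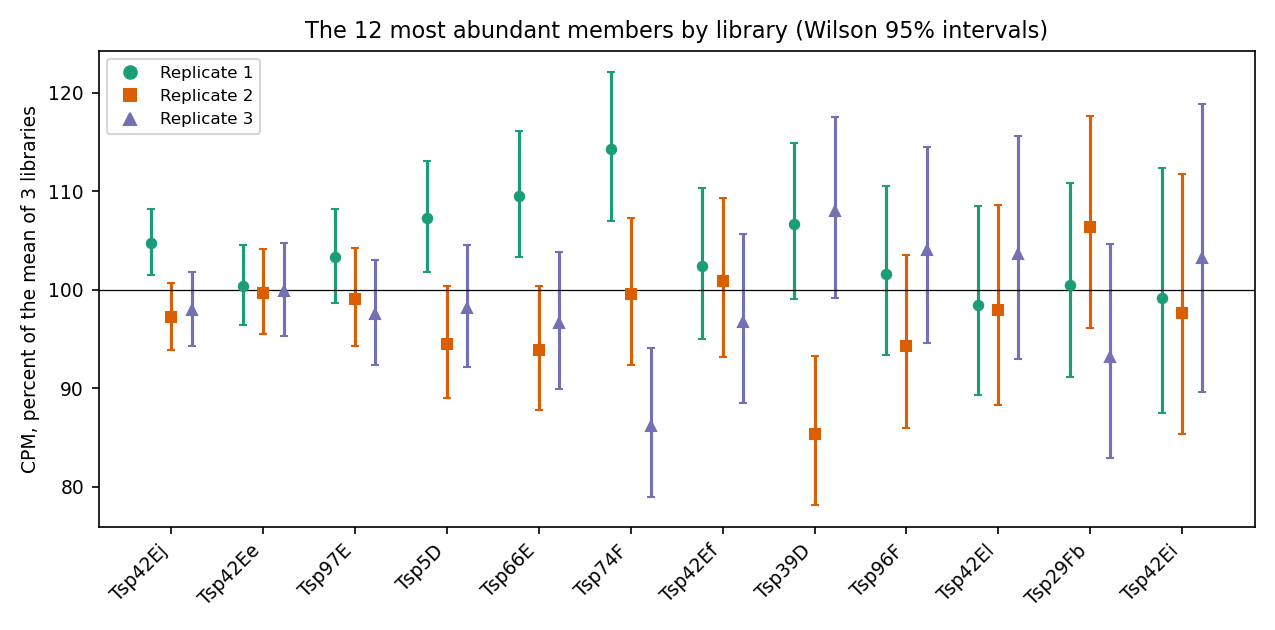
Level of the 12 most abundant members in each library as a percentage of the member's mean over 3 libraries (vertical axis), with Wilson 95% intervals as bars that cover counting error only. *Tsp42Ee* lay within 1 percent of its mean in all libraries, *Tsp5D* and *Tsp66E* were high in replicate 1, *Tsp39D* was low in replicate 2 and *Tsp74F* was low in replicate 3.

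By level per kb, *Tsp42Ej*, *Tsp42Ee*, *Tsp97E* and *Tsp5D* kept their order in 3 of 3 libraries, and the order was looser below. Ranked by mean CPM per kb, the 30 detected members form 29 neighbouring pairs. In 14 of these the mean log2 ratio of the neighbours was no larger than its SD over the 3 libraries. The steps from *Tsp42Ej* to *Tsp42Ee* (log2 ratio 1.02 ± 0.05), from *Tsp42Ee* to *Tsp97E* (1.25 ± 0.04) and from *Tsp97E* to *Tsp5D* (0.12 ± 0.06; SD, n = 3) exceeded it. *Tsp74F* and *Tsp42Ef* (0.02 ± 0.16), *Tsp29Fb* and *Tsp39D* (0.25 ± 0.28), *Tsp96F* and *lbm* (0.16 ± 0.19) and *lbm* and *Tsp42Ed* (0.09 ± 0.21) did not differ beyond their spread. In the lower part, *Tsp42Er* and *Tsp29Fa* (0.07 ± 0.26), *Tsp42Eq* and *Tsp42Eo* (0.27 ± 0.76) and *Tsp42Ec* and *Tsp42Ep* (0.21 ± 0.33) could not be ordered either. The smallest two-sided exact sign-flip permutation p that 3 libraries allow is 0.25, and the smallest adjusted p over the 29 pairs (Benjamini-Hochberg) was 0.426, so no pair could pass a threshold of 0.05. Neighbours were also paired by these same levels, so the ratios are descriptions. Ranked by CPM without length, 11 of the 12 leading members were the same, and *Tsp96F*, with an exon length of 3343 bp, moved from place 13 to place 9.

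The members that carry Kuzbanian to the cell surface stood in the lower middle of the family. They belong to the TspanC8 group, named after the cysteines in the large loop, and Kuzbanian (*kuz*) is the fly ADAM10 protease that cleaves Notch. *Tsp86D* (chromosome 3R, 10868708 to 10870555, plus strand) had 20.0, 23.5 and 21.9 CPM in replicates 1, 2 and 3, a mean of 21.8 CPM ± 1.75 (SD, n = 3). *Tsp26A* (2L, 6000228 to 6003738, plus strand) had 19.4, 14.7 and 15.6 CPM, a mean of 16.6 CPM ± 2.53. *Tsp3A* (X, 2617758 to 2619738, minus strand) had 12.2, 8.98 and 11.1 CPM, a mean of 10.8 CPM ± 1.66. Replicate 2 was the highest library for *Tsp86D* and the lowest for *Tsp26A* and *Tsp3A*, although for each gene the intervals of the 3 libraries overlapped. Together they made up 2.69% ± 0.037 of family counts. Per kb, *Tsp86D* reached 12.2 ± 0.98, *Tsp3A* 5.99 ± 0.92 and *Tsp26A* 5.47 ± 0.83 CPM per kb, and *kuz* reached 7.30 ± 0.72 CPM per kb. The log2 ratio to *kuz* per kb was 0.74 ± 0.26 for *Tsp86D*, -0.28 ± 0.10 for *Tsp3A* and -0.42 ± 0.08 for *Tsp26A* (SD, n = 3), and each kept its sign in 3 of 3 libraries. The direction for *Tsp86D* depended on this scale, since *kuz* has 7100 bp of exon and without division by length stood at 51.8 CPM ± 5.12, above all TspanC8 members. Per kb, *Tsp3A* lay above *Tsp26A* by a log2 ratio of 0.14 ± 0.12, whereas without division by length it lay below (10.8 against 16.6 CPM). The receptor that Kuzbanian cleaves, Notch (*N*, FBgn0004647), had 75.8 CPM ± 6.29, or 7.46 CPM per kb.

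The 42E cluster held 18 members, *Tsp42Ea* to *Tsp42Er* with *lbm*, in 73.4 kb of chromosome 2R (6992676 to 7066113, dm6 coordinates). Of these, 15 lie on the plus strand and 3 (*Tsp42Ed*, *Tsp42Ep* and *Tsp42Eq*) on the minus strand, and 6 protein-coding genes that are not members lie within or across the span. The other 17 members are dispersed over 2L, 2R, 3L, 3R and X. In the cluster 17 of 18 members were detected, and among the dispersed members 13 of 17 were. The cluster took 54.2% ± 0.95 of family counts (SD, n = 3), at 53.1%, 54.8% and 54.8% in replicates 1, 2 and 3. Per kb its share was 67.1%, its members having a median exon length of 1152 bp against 1791 bp for the dispersed members. Within the cluster, *Tsp42Ej* and *Tsp42Ee* alone held 71.2% ± 0.80 of the counts. The median detected member of the cluster had 13.9 ± 1.2 CPM per kb and that of the dispersed members 19.1 ± 0.97 CPM per kb. The cluster thus had the larger share of counts and the lower median.

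**Figure D3:**
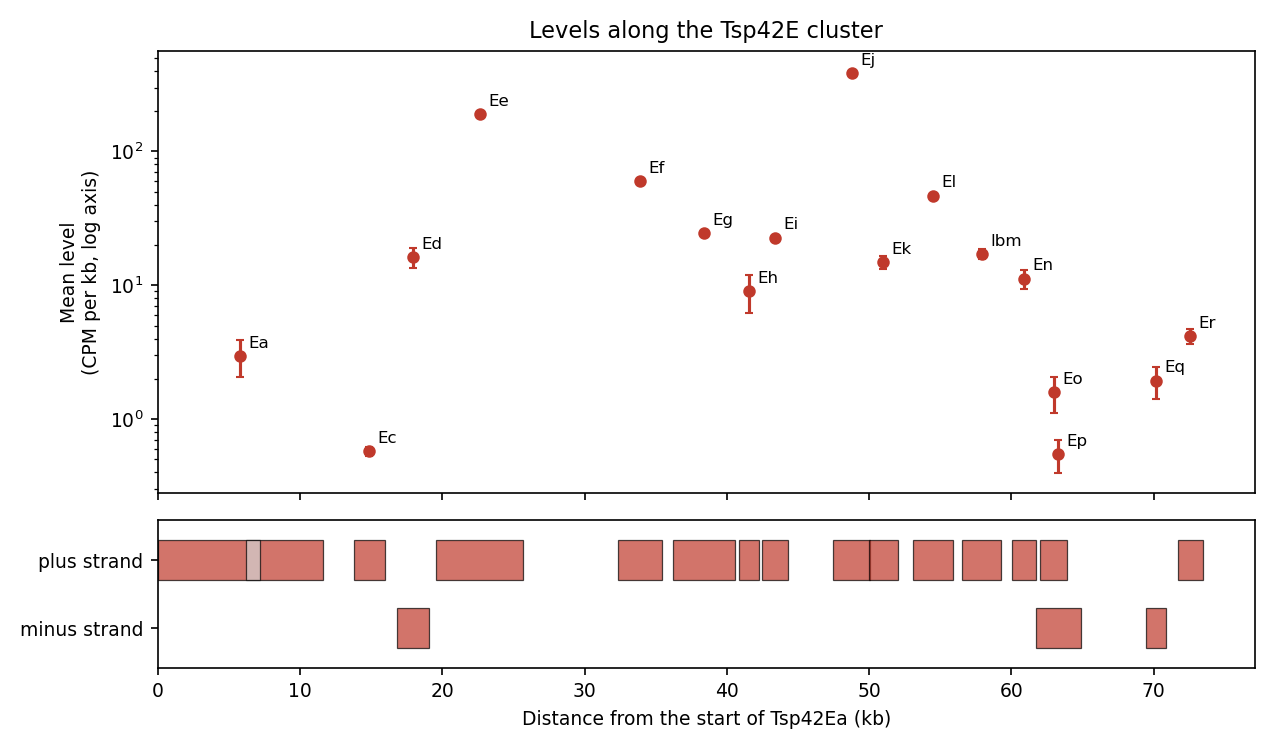
Mean level of the 17 detected cluster members in CPM per kb of exon (log axis; bars, SD over 3 libraries) against distance from the start of *Tsp42Ea* in kb, with gene bodies by strand in the lower panel. The peaks at *Tsp42Ee* and *Tsp42Ej* stand beside genes at much lower levels and the genes at either end lie below 5 CPM per kb of exon. Labels leave out the prefix Tsp42, and the grey box is *Tsp42Eb*, which had no counts.

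Along the cluster, levels rose and fell several times. From the left end, *Tsp42Ea* had 2.96 CPM per kb, *Tsp42Eb* no count and *Tsp42Ec* 0.579 CPM per kb. *Tsp42Ed* reached 16.2 CPM per kb and *Tsp42Ee* 190 CPM per kb, after which *Tsp42Ef* (60.0), *Tsp42Eg* (24.4) and *Tsp42Eh* (9.08 CPM per kb) formed a descending run. *Tsp42Ei* had 22.7 CPM per kb, *Tsp42Ej* 384 CPM per kb and *Tsp42Ek* 14.9 CPM per kb. This was the steepest step in the cluster. Levels then went from *Tsp42El* (46.7) through *lbm* (17.1) and *Tsp42En* (11.2 CPM per kb) to *Tsp42Ep*, *Tsp42Eo*, *Tsp42Eq* and *Tsp42Er*, which lay between 0.549 and 4.17 CPM per kb. On the scale of log2(CPM per kb + 1), neighbouring genes differed by a median of 1.40, from 0.18 to 4.60, and 5 of the 17 neighbouring pairs were less than 2-fold apart on this scale while 5 were more than 4-fold apart. Spearman's rho between the levels of neighbours was 0.57 over the 17 pairs, and rho between level and position was -0.10 over the 18 genes. The genes share libraries and all but those at the ends enter 2 pairs, so both values are descriptions. Levels also depended on the length used. Per kb of the shortest annotated transcript, *Tsp42Ea* had 5.41 and *Tsp42Ep* 1.67 CPM per kb.

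*lbm*, whose protein appears on motor axons as they form synapses, had an intermediate level. It had 17.4, 20.5 and 18.4 CPM in replicates 1, 2 and 3, a mean of 18.8 CPM ± 1.61 (SD, n = 3), and its coefficient of variation (8.54%) was at the level of counting error (8.53%). By level per kb it ranked 14 of 35. Its position is chromosome 2R, 7049238 to 7051964, plus strand, between *Tsp42El* and *Tsp42En*.

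Some cluster genes overlap, which bears on their counts. The exons of *Tsp42Ej* and *Tsp42Ek* share 107 bp on the same strand, 8.89% of the exon length of *Tsp42Ek*. How reads in such shared bases were assigned is not given in the sources used here. *Tsp42Ek* had 18.4, 15.8 and 19.7 CPM and stood 25.7-fold below *Tsp42Ej* per kb. All 889 exon bases of *Tsp42Eo* lie opposite exons of *Tsp42Ep*, and the strand setting of the counting is not stated, so their 32 and 34 counts over the libraries cannot be told apart with certainty. *Tsp42Ea* shares 97 bp, 4.80% of its exon length, with *CG30159* on the same strand, a gene at 27.0 CPM. *Tsp42Eb* lies inside the body of *Tsp42Ea* on the same strand and shares no exon base with it. Outside the cluster, 745 bp of *Tsp29Fa* exons lie opposite an antisense RNA gene (asRNA:CR46071) with 0.0400 CPM. Over the family, 12 members share exon bases with another counted gene and 23 do not.

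Tandem neighbours outside 42E were also unequal. *Tsp29Fa* (2L, 8933962 to 8936096) and *Tsp29Fb* (2L, 8937390 to 8939743) follow each other on the plus strand. *Tsp29Fa* had 5.56 CPM ± 0.421 and *Tsp29Fb* 48.2 CPM ± 3.19 (SD, n = 3). Per kb the log2 ratio of *Tsp29Fb* to *Tsp29Fa* was 3.24, 3.29 and 3.30 in replicates 1, 2 and 3, a 9.70-fold difference with an SD of 0.04 on the log2 scale. That SD does not cover the choice of length. Per kb of the shortest annotated transcript, the levels were 43.2 for *Tsp29Fb* and 5.78 CPM per kb for *Tsp29Fa*, a smaller fold difference.

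At the lower end, 5 members did not reach 10 counts over the libraries. *Tsp42A* had 3, 2 and 3 counts in replicates 1, 2 and 3, and *Tsp68C* had 4, 0 and 0. *Tsp33B*, *Tsp42Eb* and *Tsp66A* had 0 counts in every library. In the shallowest, where the floor of 3 counts is 0.476 CPM, the Wilson interval for 0 counts allows a level of up to 0.610 CPM. For *Tsp66A* this limit is uncertain, because each of its 2537 exon bases also belongs to *CG42660* and *CG42661* on the same strand, and both of these had 0 counts as well. The part of this overlap in the value was not tested. The detected members under 10 CPM were *Tsp42Eh*, *Tsp42Ea*, *Tsp29Fa*, *Tsp42Er*, *Tsp42Eq*, *Tsp42Ep*, *Tsp42Eo*, *Tsp2A* and *Tsp42Ec*.

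*Tsp2A*, which builds smooth septate junctions in the midgut and Malpighian tubules with Snakeskin (*Ssk*), Mesh (*mesh*) and Hoka (*hoka*), was near the detection limit. It had 7, 8 and 4 counts, or 0.855 CPM ± 0.23 (SD, n = 3). Its partners were not alike in these heads. *mesh* had 1, 7 and 4 counts (0.569 CPM ± 0.42), *hoka* had 27, 34 and 17 counts (3.52 CPM ± 0.99), and *Ssk* had 406, 362 and 294 counts (48.2 CPM ± 1.37). Per kb the log2 ratio of *Ssk* to *Tsp2A* ran from 5.62 to 6.24. The midgut markers *mex1* and *betaTry* had 0, 0 and 0 and 0, 2 and 0 counts in replicates 1, 2 and 3.

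Integrins are classical partners of tetraspanins, and of the 7 fly integrin genes listed for comparison 6 were matched (*scb* was not). The subunits *if* (alphaPS2) and *mys* (betaPS) were the most abundant, at 144 CPM ± 7.27 and 134 CPM ± 5.68 (SD, n = 3), followed by *mew* (alphaPS1) at 47.9 CPM ± 2.74. *Itgbn*, *ItgaPS4* and *ItgaPS5* were at 0.551, 0.440 and 0.0907 CPM. Per kb, *mys* reached 30.0 and *if* 24.0 CPM per kb, a level between those of *Tsp39D* (33.1) and *Tsp42Ei* (22.7 CPM per kb). *TM4SF*, a tetraspanin whose name lies outside the rule, had 313, 282 and 293 CPM, a mean of 296 CPM ± 15.9. At 122 CPM per kb it would have stood between *Tsp42Ee* and *Tsp97E*, so the rule leaves out 1 abundant gene of the family.

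Members also differ in gene structure, which the rule did not use. The annotation gives the cluster members proteins of 208 to 250 residues (median 221), and each has a single protein length. The dispersed members have proteins of 221 to 362 residues (median of the longest, 267), and 11 of 17 have a single protein length. The ranges overlap between 221 and 250 residues. Transcripts of the cluster members have 3 to 6 exons and 10 of 18 genes have 1 annotated transcript. Those of the dispersed members have 1 to 14 exons and 3 of 17 genes have 1 transcript. The 14 exons belong to *Tsp66A*, whose exon bases all lie in other genes too, and the next highest number is 8, in *Tsp74F*. The longest protein is that of *Tsp68C* (362 residues) and the shortest that of *lbm* (208 residues). The isoforms in use were not measured.

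No member was called variable between replicates, which the low share of calls over all genes would also give. In edgeR's quasi-likelihood fit, which sets the spread of a gene over the libraries against the spread expected at its abundance, 26 members were tested and 0 were called at an adjusted p under 0.05, where 28 of 9049 genes (0.309%) were. At an unadjusted p under 0.05 there was 1 member, *Tsp42Eh* (edgeR p 0.0446, adjusted p 0.992), beside 4.63% of all genes. DESeq2 dispersion outliers included 0 members and 0.875% of 12909 genes. On simulated data the edgeR fit called only 6.06% of 2-fold changes in 1 library. The widest member range was 0.81 on the log2 scale, below 2-fold, so the absence of calls does not show that members were steady. The 9 members that were not tested had 34 counts or fewer over the libraries. The median range of log2(CPM + 1) over the libraries was 0.22 for detected members and 0.24 for all detected genes.

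**Figure D4:**
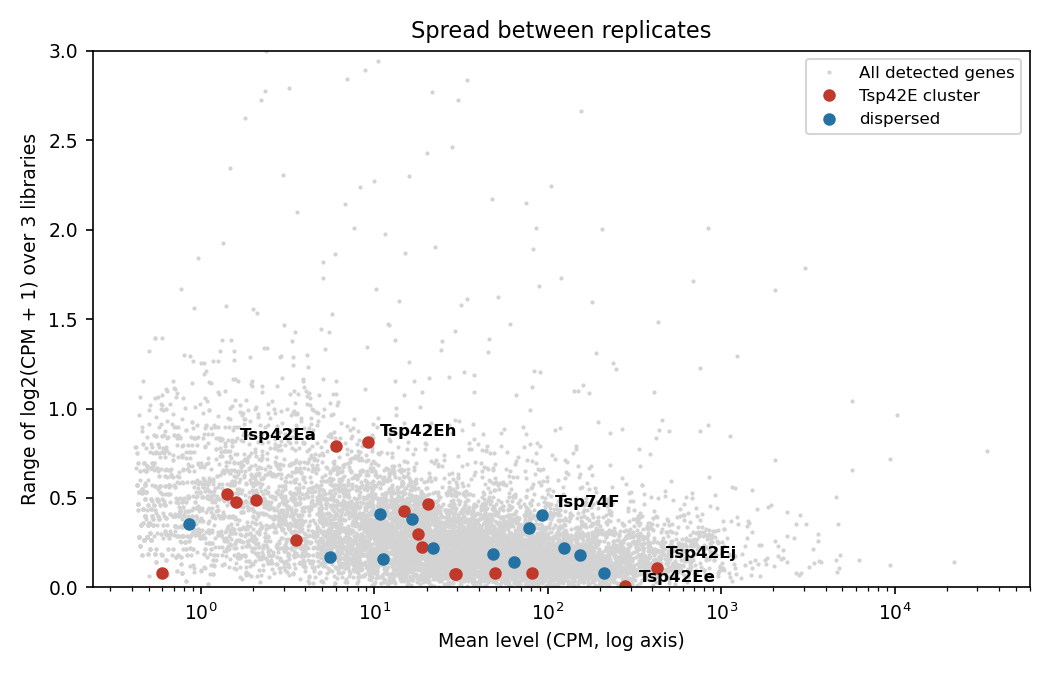
Range of log2(CPM + 1) over the 3 libraries (vertical axis) against mean CPM (log axis) for all detected genes (grey) and the detected members of the Tsp42E cluster (red) and elsewhere (blue). Members lie within the cloud of genes of like abundance, with *Tsp42Eh* (0.81) and *Tsp42Ea* (0.79) as the widest, and 7 genes lie above the axis limit.

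The widest ranges belonged to cluster genes of low count. *Tsp42Eh* had 73, 48 and 77 counts, or 8.76, 6.53 and 12.2 CPM in replicates 1, 2 and 3, a log2 range of 0.81. *Tsp42Ea* had 51, 30 and 49 counts, or 6.12, 4.08 and 7.78 CPM, a range of 0.79. Both were lowest in replicate 2 and highest in replicate 3. Without replicate 2 the widest member was *Tsp42Eo* (0.52) and without replicate 3 it was *Tsp42Ea* (0.49). The Wilson intervals of the 3 libraries had no common value in 7 of 30 detected members (23.3%), beside 23.0% of all detected genes. They were *Tsp42Ej*, *Tsp5D*, *Tsp74F*, *Tsp66E*, *Tsp39D*, *Tsp42Eh* and *Tsp42Ea*. For 12 of the 30, the coefficient of variation was below that of counting error (40%, beside 36.8% of all detected genes).

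Of 30 detected members, 15 (50%) had their lowest CPM in replicate 2, beside 26.2% of all detected genes. In 9 it was replicate 3, beside 38.8% of genes, and in 6 replicate 1, beside 35.0%. With TMM scaling in place of library totals, 16 members were lowest in replicate 2, beside 34.4% of detected genes. The shifts were small. The median log2 ratio of replicate 2 to the mean of the others was -0.05 for detected members and 0.05 for all detected genes. The difference was not tested, since members are not replicates. All 3 neuronal markers were also lowest in replicate 2, with 2951, 2587 and 3058 CPM in sum in replicates 1, 2 and 3, as was the mitochondrial share. Of the muscle markers, *Mhc* was lowest there (4007, 3257 and 3513 CPM) and *Act88F* was not. Of the photoreceptor markers, *trp* was lowest there (3815, 3439 and 3792 CPM), whereas *ninaE* and *Arr2* were highest there, and none of the 3 glial markers was lowest there. Their part in the result was not tested. The dispersed members summed to 891, 807 and 817 CPM and the cluster members to 1009.5, 976 and 989 CPM, so replicate 1 was the highest library for both groups.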

How the data were processed

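Poly(A) RNA libraries from adult heads (3 replicates, 1 group) were analysed from 1 table of raw counts per FlyBase gene that the authors deposited. The submitters' processing notes name STAR 2.7.4a, Subread and featureCounts with dm6. The methods of the study name snakePipes, which it used for mapping and counting. The strand setting and the handling of ambiguous reads are not given in the sources used here. Deposited counts were not normalised. Symbols, positions and exon lengths (union of annotated exons) came from Ensembl release 115 (BDGP6, dm6 coordinates), a later release than that of the study, and 98.3% of 17558 IDs matched. The symbols *scb*, *FASN1* and *vas* matched no ID in the table. 0 columns were left unused.

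Levels are CPM over library totals. Detection required 10 counts over the libraries. Intervals are Wilson 95% intervals and floors are 3 counts, both for counting error only. Log2 ratios had 0.5 count added. Replicate variability used edgeR 4.0.16 (R 4.3.3; TMM, filterByExpr, intercept-only design, quasi-dispersion against its prior by the upper tail of F, Benjamini-Hochberg). On simulated data with 8978 genes tested, 0 of 8781 unchanged genes were called, and 6.06% of 2-fold, 87.9% of 4-fold and 100% of 8-fold changes in 1 library were. DESeq2 1.42.0 was an alternative. Members, lists and pairs were chosen with earlier results of these data known. All members are named, and values per library are given for the 12 most abundant, the TspanC8 members, *Tsp2A*, *lbm* and *Tsp42Ej*, with others chosen after their values were seen. Alternatives were other scalings, filters, lengths and leaving out each library. Protein sequence features were not analysed here.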

Additional observations from a re-analysis of the deposited data

How the results depend on the processing

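For 45 results, 303 values were recomputed under other settings, of which 256 moved by less than the replicate SD or, where the result is a count or a range, by less than 1.5 times. Leaving out 1 library moves a mean of 3 libraries by less than its SD by construction. Among the 168 values recomputed without leaving out a library, 125 stayed within these limits. These 168 include the level of each member per kb of exon, judged by the SD of its CPM. That is a change of unit, so 125 of 168 is no measure of robustness. For member levels under other scalings of CPM, 96 of 105 values stayed within the SD. No paired analysis was possible because the design holds 1 group. A denominator without mitochondrial genes raised the family sum to 1946 CPM by construction. Dividing by exon length moved the share of the cluster to 67.1%, that of *Tsp42Ej* to 31.9%, that of the TspanC8 members to 1.96% and the median detected member to 15.3 CPM per kb. With the length of the shortest annotated transcript, chosen after seeing the data, the cluster share was 62.8%. Counting members with at least 1 count moved the median to 18.3 CPM. Of all genes, 118 were called for variability without a filter on low counts and 113 by DESeq2 dispersion outliers, against 28, and leaving out 1 library gave 37 to 57. None of these settings called a member. The largest log2 range ran from 0.49 to 0.81 when 1 library was left out, and the genes behind it changed with the library. It also depended on the amount added before the logarithm. With 0.1 CPM added in place of 1 CPM it was 0.91, in *Tsp42Ea*, and with 5 CPM it was 0.58, in *Tsp42Eh*. Causes of these changes were not tested. Members with few counts, such as *Tsp2A* and *Tsp42Ec*, could not be ordered at this depth.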
